A study of Mus musculus with 3 samples.

Results

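The genes described here are 10 genes of fatty acid uptake and binding, Lpl, Gpihbp1, Angptl4, Vldlr, Cd36, Slc27a1, Slc27a2, Fabp3, Fabp4 and Fabp5, measured in RNA of whole brown adipose tissue, a fat that makes heat. They were chosen by name, and every non-control probe whose RefSeq accession belonged to 1 of them was taken. This gave 13 of 55681 probes, with 2 probes each for Lpl, Vldlr and Fabp3. All 13 probes were well above background in both channels on all 3 arrays, so no gene was lost to the filter on dim probes, which left 25031 probes and 13129 genes with a symbol in the series. The study set Ad-Lkb1 mice, with a deletion of the liver kinase B1 (LKB1) that the gene Stk11 encodes, against wild-type littermates. Each of 3 arrays of 2 colours held RNA of 1 Ad-Lkb1 sample labelled with Cy5 and of 1 wild-type sample labelled with Cy3, and the design text gives 3 biological replicates of either genotype. All mice were males aged 10 weeks on regular chow, and the labelled strain was C57BL/6J on the Ad-Lkb1 side and C57BL/6 on the wild-type side. The labels give neither the promoter nor the cells in which the deletion was made, and they do not say whether a sample pooled several mice.

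Brown fat takes up fatty acids from the blood to burn and to store them. Lipoprotein lipase, the product of Lpl, is made by the adipocytes, is carried across the capillary wall by GPIHBP1 and cleaves the triglycerides of circulating lipoproteins, while ANGPTL4 inhibits it. VLDLR binds triglyceride-rich lipoproteins at the cell surface, CD36 and the fatty acid transport proteins of the Slc27a family bring fatty acids into the cell, and the fatty acid-binding proteins carry them through the cytoplasm.

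The share of non-control features well above background ran from 46.7% to 51.3% over arrays and channels, and no spot was saturated. Stk11, the check of the labels, had log2 ratios of -1.26, -1.17 and -1.17 on arrays 1 to 3 (mean -1.20, SD 0.0559, n = 3; limma adjusted p = 0.0105). Over all 19328 genes and unnamed features, limma called 1681 at an adjusted p under 0.05, of which 54.9% were higher in Ad-Lkb1. That split was 3.85% when each array's ratios were centred on their median instead of along intensity, and 64.5% to 66.9% with no background subtraction, a smaller offset, the scanner software's processed signals, the deposited value table, a running median or without array 3. All arrays carried the dyes the same way round, so the effect of the dye on a probe and that of the genotype cannot be told apart. Nor can the strain name and the genotype.

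Of the 10 genes, Lpl rose, and Vldlr, Fabp3 and Slc27a1 fell in Ad-Lkb1 brown fat. These 4 passed limma's test at an adjusted p under 0.05, while 8.70% of all features tested did (4.78% higher and 3.92% lower). The other 6 genes, Gpihbp1, Cd36, Fabp4, Fabp5, Slc27a2 and Angptl4, did not pass. Before adjustment, limma gave 7 of the 10 genes and 29.3% of all features a p under 0.05. Ratios were above 0 on all arrays for Lpl and Fabp4, and 24.0% of all features behaved so. They were below 0 on all arrays for 6 genes, Gpihbp1, Cd36, Vldlr, Fabp3, Slc27a1 and Slc27a2, against 27.7% of all features, and Fabp5 and Angptl4 had mixed signs. The median log2 ratio of the 10 genes was -0.34, with -0.38, -0.37 and -0.22 on arrays 1 to 3, beside a median of -0.0099 over all features. All values are log2 ratios of Ad-Lkb1 over wild type unless they are named as levels, and a level is the normalised log2 intensity of 1 sample. Without array 1, and again without array 2, limma called 0 of 19328 features and none of the 10 genes (3929 and 3563 features, or 20.3% and 18.4%, and 6 of the genes each time, at an unadjusted p under 0.05). Without array 3 it called 5 of the genes, namely Lpl, Gpihbp1, Vldlr, Fabp3 and Slc27a2, beside 2052 or 10.6% of all features.

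**Figure D1:**
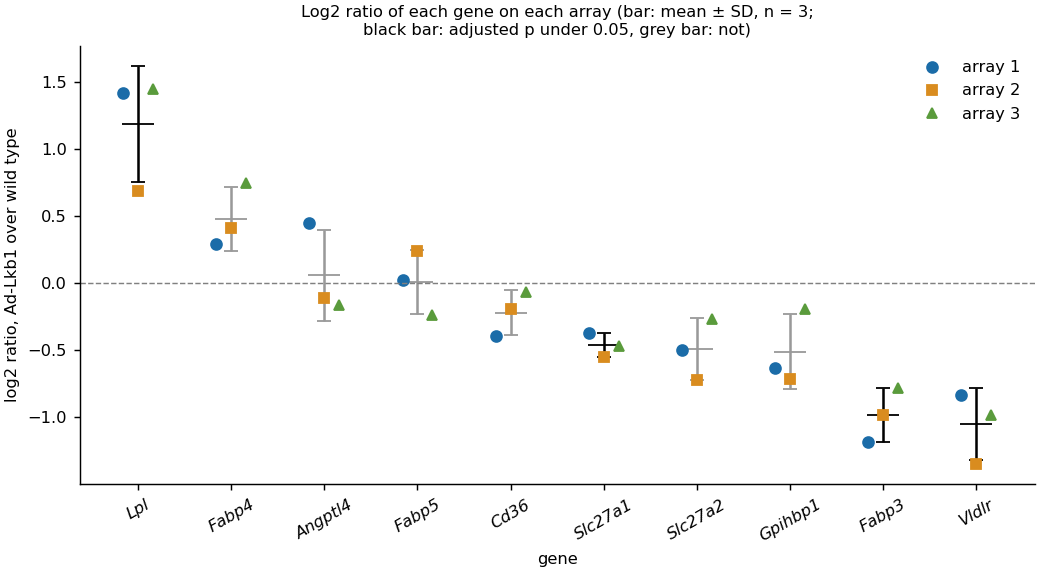
Log2 ratio (Ad-Lkb1 over wild type, vertical axis) for each of the 10 genes (horizontal axis), 1 point per array, with the mean and SD (n = 3) as a bar that is black where limma's adjusted p was under 0.05. Lpl stands highest, with a mean of 1.19, and Vldlr lowest, with -1.05.

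Among Lpl, Gpihbp1 and Angptl4, the genes of the lipase system within the 10, Lpl had the clearest change. Its level was 15.90, 15.57 and 15.83 in the Ad-Lkb1 samples of arrays 1 to 3 and 14.47, 14.88 and 14.38 in the wild-type samples. The groups did not overlap, which held for 7 of the 10 genes, 2 higher and 5 lower, and for 36.5% of all features (17.8% higher and 18.7% lower). The ratio was 1.42, 0.69 and 1.45, a mean of 1.19 (SD 0.433, n = 3; 95% interval 0.72 to 1.66) or a 2.28-fold higher level in Ad-Lkb1 (limma, adjusted p = 0.0337). Array 2 gave the smallest ratio, with the lowest Ad-Lkb1 level of the 3 and the highest wild-type level. The second Lpl probe, which lies on the same transcript accession, had ratios of 1.48, 0.56 and 0.74 (mean 0.93, SD 0.486). Over all 25031 probes, limma gave it an adjusted p = 0.0602 and the first probe an adjusted p = 0.0328. Of the 13 probes, 6 passed that test, 1 higher and 5 lower, beside 8.73% of all probes.

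Before normalisation the signal of the first Lpl probe was 37913, 36587.5 and 37784.5 in the Cy5 channel that held Ad-Lkb1 and 39706.5, 41691 and 29184 in the Cy3 channel that held wild type. The Ad-Lkb1 signal thus exceeded the wild-type signal on array 3 only, and the ratio of the normalised values is relative to probes of similar brightness. With ratios centred on each array's median, which does not follow brightness, the mean was 0.50 and still passed. The call of Lpl was lost with the processed signals of the scanner software (0.99, adjusted p = 0.0659), with the deposited value table (0.99, adjusted p = 0.0657) and with no filter on dim probes (1.19, adjusted p = 0.0744).

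Gpihbp1, which encodes the anchor that holds the lipase on the capillary wall, did not pass the test. Its levels were 11.79, 11.84 and 12.07 in Ad-Lkb1 and 12.42, 12.56 and 12.26 in wild type. Each Ad-Lkb1 level was below every wild-type level, and the ratios were -0.63, -0.71 and -0.19 (mean -0.51, SD 0.280, n = 3; limma adjusted p = 0.0795). Array 3 differed least, and without it the mean of -0.67 passed (adjusted p = 0.0256). Endothelial cells are the source of this protein. Of 10 endothelial markers, all measured, Kdr fell and Vwf rose (ratios -0.42 and 0.40, limma adjusted p = 0.0400 and 0.0408), and the list's median was -0.28. With median centring Vwf turned to -0.25, and 8 of the 10 passed as lower, beside 9708 of all 19328 features. The summed intensity of the 10 markers in Ad-Lkb1 was 0.967, 0.558 and 0.753 times that in wild type on arrays 1 to 3. It was 7161 to 8610 in Ad-Lkb1 and 8907 to 12840 in wild type. The list's median ratio was 0.019, -0.46 and -0.086 on the same arrays. The part of endothelial cells in the Gpihbp1 values was not tested. In whole tissue, fewer cells of a type and less RNA per cell cannot be told apart.

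Angptl4, the lipase inhibitor that fasting induces in fat, had no common direction. The levels were 14.29, 13.93 and 14.12 in Ad-Lkb1 and 13.84, 14.05 and 14.28 in wild type, and the groups overlapped. The ratio was 0.45 on array 1 and -0.11 and -0.16 on arrays 2 and 3, with a mean of 0.059 (SD 0.341, 95% interval -0.33 to 0.45; limma adjusted p = 0.832). The interval leaves room for a change of either sign, and the sign of the mean turned under 7 of 14 alternative analyses.

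Of the surface receptors, Vldlr fell and Cd36 did not pass the test. Vldlr levels in Ad-Lkb1 were 10.94, 10.51 and 10.82, all below the wild-type levels of 11.77, 11.86 and 11.79. The wild-type samples lay within a narrow range (SD 0.0483) and the Ad-Lkb1 samples spread wider (SD 0.222), with array 2 the lowest. The ratios of -0.83, -1.35 and -0.98 gave a mean of -1.05 (SD 0.271, n = 3; 95% interval -1.38 to -0.73), so that wild type stood 2.08-fold above Ad-Lkb1 (limma, adjusted p = 0.0235). A second Vldlr probe on the same accession gave -0.69, -1.37 and -0.85 (mean -0.97, SD 0.358) and also passed among probes (adjusted p = 0.0352). The levels of that probe differed less in spread, with SDs of 0.149 in wild type and 0.236 in Ad-Lkb1. Both probes were lowest on array 2. The call was lost with the processed signals (-0.96, limma adjusted p = 0.0574) and with the deposited value table (adjusted p = 0.0576).

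Cd36, the fatty acid translocase, had levels of 12.35, 12.57 and 12.74 in Ad-Lkb1 and of 12.74, 12.76 and 12.81 in wild type, so the groups met at their edge. Its ratios were -0.39, -0.19 and -0.062, with a mean of -0.22 (SD 0.167; 95% interval -0.46 to 0.026; limma adjusted p = 0.209). Wild-type levels again had the smaller spread (SD 0.0342, against 0.200 in Ad-Lkb1). Both receptors were thus below 0 on all arrays, and the difference between their changes was not tested.

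**Figure D2:**
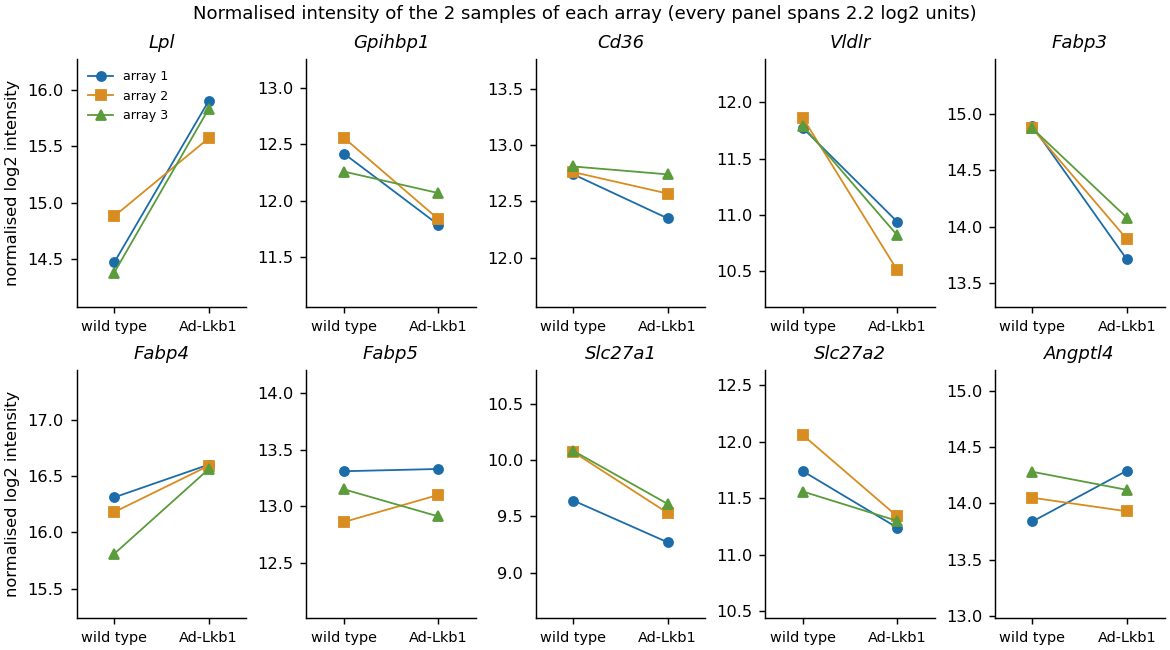
Normalised log2 intensity (vertical axis, 2.2 log2 units in every panel) of the wild-type and the Ad-Lkb1 sample of each array, joined by a line, for the 10 genes. The lines of Lpl all rise, those of Vldlr and Fabp3 all fall, and those of Fabp5 and Angptl4 run in both directions.

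The transport proteins of the Slc27a family are membrane proteins that couple the entry of fatty acids to their activation to acyl-CoA. Slc27a1, the form of muscle and fat, had levels of 9.27, 9.53 and 9.61 in Ad-Lkb1 and of 9.64, 10.07 and 10.08 in wild type. The highest Ad-Lkb1 level was just below the lowest wild-type level. Its ratios of -0.37, -0.55 and -0.47 were the most alike of the 10 genes (mean -0.46, SD 0.0901, n = 3; 95% interval -0.66 to -0.27), with wild type 1.38-fold above Ad-Lkb1 (limma, adjusted p = 0.0372). This call was the least stable of the 4. It was lost in 8 of 14 alternatives, each of which kept a mean between -0.37 and -0.51, with adjusted p from 0.0640 to 0.189.

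Slc27a2, a form best known from liver and kidney, had levels of 11.24, 11.34 and 11.30 in Ad-Lkb1 and of 11.74, 12.06 and 11.56 in wild type, with no overlap. Here the Ad-Lkb1 samples were close to each other (SD 0.0495) and the wild-type samples spread (SD 0.255). The ratios were -0.50, -0.72 and -0.27 (mean -0.49, SD 0.229; 95% interval -0.78 to -0.21; limma adjusted p = 0.0656). It passed without array 3 (-0.61, adjusted p = 0.0400) and when the variance was fitted along intensity with a robust method (adjusted p = 0.0468). The means of the pair, -0.46 and -0.49, lay close together, and the pair fell on different sides of the threshold with SDs of 0.0901 and 0.229.

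Of the 3 binding proteins, Fabp3 fell, and Fabp4 and Fabp5 did not pass the test. Fabp3, the heart-type protein, which heart, muscle and active brown fat make, had levels of 13.71, 13.89 and 14.08 in Ad-Lkb1 and of 14.89, 14.87 and 14.87 in wild type. The wild-type samples hardly differed (SD 0.0119), and every Ad-Lkb1 sample lay below them. The ratios were -1.18, -0.98 and -0.78 (mean -0.98, SD 0.201, n = 3; 95% interval -1.25 to -0.71), with wild type 1.97-fold above Ad-Lkb1 (limma, adjusted p = 0.0195). The second Fabp3 probe, on the same accession, gave -1.15, -0.92 and -0.75 (mean -0.94, SD 0.198; adjusted p over probes 0.0201). Levels of that probe had SDs of 0.0685 in wild type and 0.231 in Ad-Lkb1. Both probes had their strongest fall on array 1. The call held in 12 of 14 alternatives, all but those without array 1 (-0.88, limma adjusted p = 0.135) or without array 2 (-0.98, adjusted p = 0.117). The alternatives are not independent checks. Scaling between arrays left the ratio and its adjusted p as reported, and the deposited value table nearly repeats the processed signals. Fabp3 alone of the 10 genes was called with the processed signals or with the deposited value table.

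Fabp4, the adipocyte protein also called aP2, had levels of 16.60, 16.59 and 16.56 in Ad-Lkb1 and of 16.31, 16.18 and 15.81 in wild type. The groups did not overlap. The ratios were 0.29, 0.41 and 0.75 (mean 0.48, SD 0.240; 95% interval 0.18 to 0.78), and the gene did not pass (limma, adjusted p = 0.0728). The wild-type samples spread (SD 0.258) and the Ad-Lkb1 samples hardly did (SD 0.0177). Before normalisation the signal was 63090, 77790 and 62012 in Ad-Lkb1 and 148621, 103388 and 76852.5 in wild type on arrays 1 to 3. It was thus lower in Ad-Lkb1 on each array. The mean was -0.19 when ratios were centred on the median, 0.15 with the processed signals and 0.26 with a running median. The gene passed in 0 of 14 alternatives.

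Fabp5, the epidermal-type protein, had overlapping levels, 13.33, 13.10 and 12.91 in Ad-Lkb1 and 13.31, 12.86 and 13.15 in wild type. Its ratios were 0.026, 0.24 and -0.24 (mean 0.0069, SD 0.238; limma adjusted p = 0.978). In the reported processing, the 95% interval of -0.29 to 0.30 leaves out a change of the size of that of Fabp3. That interval depends on the centring, since with median centring the Fabp5 mean was -0.70 (SD 0.460) and passed (limma, adjusted p = 0.0333). Fabp5 and Fabp4 lie in 1 cluster of genes with Pmp2, Fabp9 and Fabp12, in the order Fabp5, Pmp2, Fabp9, Fabp4, Fabp12 in the RefSeq table. Pmp2 and Fabp9 were not well above background on any array, and Fabp12 had ratios of 0.40, 0.81 and 0.58 (mean 0.60, SD 0.206; limma adjusted p = 0.0416). With median centring the Fabp12 mean was 0.27 and did not pass (adjusted p = 0.168).

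The sequences before the start sites of Vldlr and Fabp3 are shown because these were the members with the strongest falls, each seen by both of its probes. RefSeq (GRCm38.p6) promoters matched 5 of the 10 genes, Cd36, Fabp3, Slc27a1, Slc27a2 and Vldlr. Capitals mark a match to either of the motifs searched on both strands, AGGTCA, the core motif of nuclear receptors such as the PPARs, and TGACG, the core of cyclic AMP response elements. No match to either motif overlapped a match to the other in these windows. Vldlr, from the first of its start sites, is chr19:27216234-27216483 on the plus strand, and Fabp3 is chr4:130308488-130308737 on the plus strand, each the 250 bases before the start.
Vldlr: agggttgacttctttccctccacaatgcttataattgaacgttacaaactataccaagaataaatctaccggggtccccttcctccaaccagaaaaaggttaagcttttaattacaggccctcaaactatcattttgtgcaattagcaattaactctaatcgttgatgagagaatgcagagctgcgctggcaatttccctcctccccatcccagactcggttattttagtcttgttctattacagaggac
Fabp3: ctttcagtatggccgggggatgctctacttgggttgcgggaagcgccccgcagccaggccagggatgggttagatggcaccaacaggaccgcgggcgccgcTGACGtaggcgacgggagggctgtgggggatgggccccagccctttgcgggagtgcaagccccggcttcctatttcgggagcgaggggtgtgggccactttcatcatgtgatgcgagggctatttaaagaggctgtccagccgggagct
The Fabp3 window held 1 match to TGACG, whose first base lies at -149, and none to AGGTCA. The Vldlr windows of both start sites and the windows of all 3 start sites of Slc27a1 held neither. Cd36 and Slc27a2 each had 1 AGGTCA, with its first base at -228 and -220, and no TGACG. Among 32851 windows of the same length, 14.0% held AGGTCA and 17.8% held TGACG. These matches describe letters, not binding.

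Genes that act with these 10 were taken from 6 lists of 44 genes, of which 34 were measured. Of these, 4 rose and 3 fell (limma, adjusted p under 0.05), with a median log2 ratio of -0.012, near that of all features. With median centring 2 rose and 18 fell, beside 389 and 9708 of all 19328 features. The count of 4 includes Slc27a5, which passed the filter on dim probes only through Ad-Lkb1, where it was higher. Among 8 measured lipase cofactors, inhibitors and maturation factors, Apoc2 and Apoe rose and Sel1l fell. Apoc2, whose protein activates lipoprotein lipase, had ratios of 1.60, 1.41 and 1.42 (mean 1.48, SD 0.105), a 2.78-fold higher level in Ad-Lkb1 (limma, adjusted p = 0.0105). Like Lpl, it was above 0 on all arrays. Apoe, the ligand by which remnant lipoproteins bind their receptors and a product of macrophages as well, had ratios of 1.16, 0.59 and 1.31 (mean 1.02, SD 0.380; adjusted p = 0.0361), and 0.33 without a pass under median centring. Sel1l, which brings the lipase out of the endoplasmic reticulum, fell by 0.41 (SD 0.0688, adjusted p = 0.0412). Angptl8, which helps to inhibit the lipase, had a mean of -0.79 and did not pass (adjusted p = 0.114).

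No other lipoprotein receptor or docking protein passed among 7 measured. Sdc1, a heparan sulfate proteoglycan that binds lipoproteins, had ratios of 0.42, 0.59 and 0.30 (mean 0.44, SD 0.148; limma adjusted p = 0.0540). Of 8 membrane partners of fatty acid entry, Zdhhc5, which palmitoylates CD36, fell by 0.42 (SD 0.0683, adjusted p = 0.0409), while Got2, also known as the plasma membrane fatty acid-binding protein, had a mean of 0.73 and did not pass (adjusted p = 0.0531). Among the transport proteins, Slc27a5, a liver form, had ratios of 0.70, 0.70 and 0.60 (mean 0.66, SD 0.0576). It was well above background on 1 of 3 arrays in wild type and 3 of 3 in Ad-Lkb1, so neither its call nor its size is given weight, and the processed signals gave 2.45. Slc27a3 and Slc27a4 stayed near 0 (-0.020 and -0.0043) and did not pass.

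Of 6 nuclear receptors and partners that act on these genes, Ppara fell and the other 5 did not pass. Ppara, a receptor that fatty acids activate, had ratios of -1.91, -1.81 and -1.34 (mean -1.69, SD 0.307), with wild type 3.22-fold above Ad-Lkb1 (limma, adjusted p = 0.0134). Pparg, the receptor of fat cell formation, had -0.028, 0.25 and 0.63 (mean 0.29, adjusted p = 0.270). Ppargc1a spread most, from -0.94 on array 1 to 1.98 on array 3. Without array 1 or without array 2 none of these 34 genes passed.

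**Figure D3:**
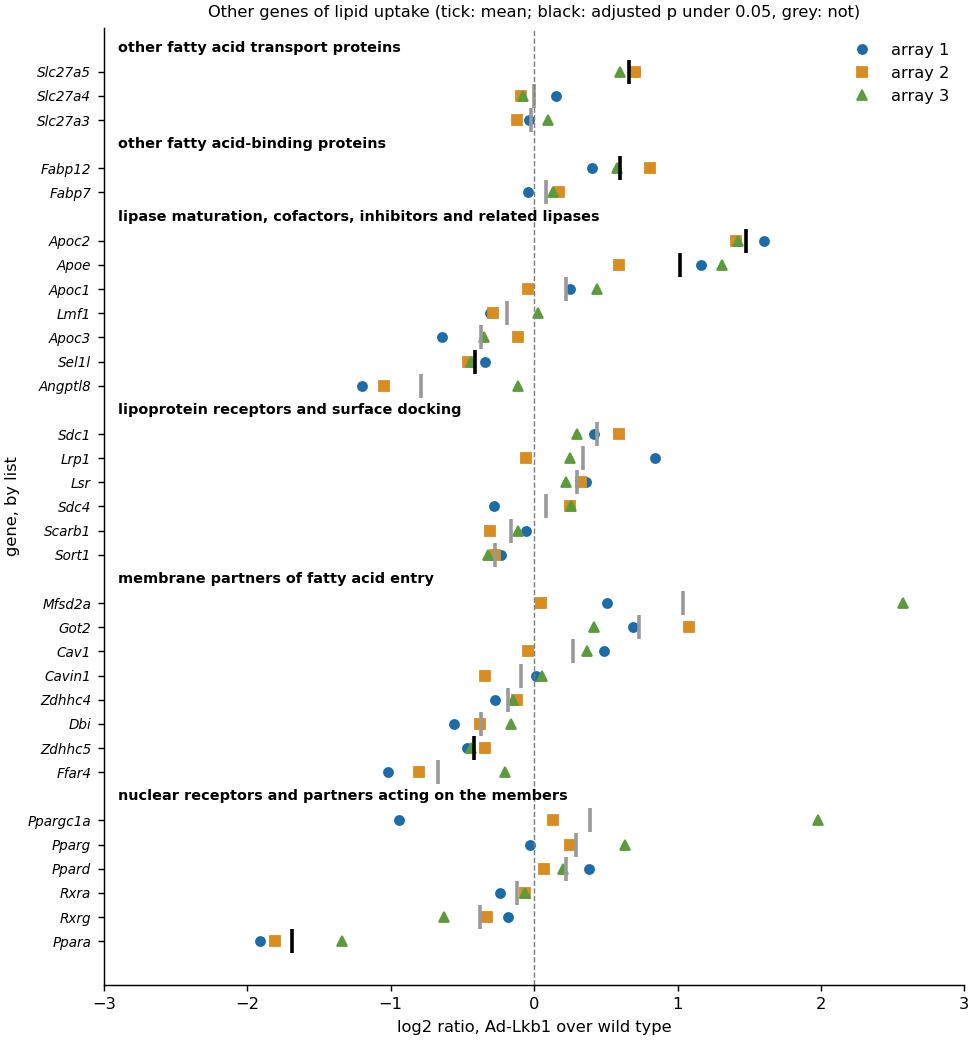
Log2 ratio (Ad-Lkb1 over wild type, horizontal axis) on each array for 32 of the 34 measured genes that act with the 10 (vertical axis, by list), with the mean as a tick that is black where limma's adjusted p was under 0.05. Apoc2 and Ppara stand at either side, with means of 1.48 and -1.69.

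Several markers of macrophages, fibroblasts and brown adipocytes passed the test. The summed intensity of 9 brown adipocyte markers was 1.77, 1.57 and 1.86 times as high in Ad-Lkb1 on arrays 1 to 3 (5 rose, 1 fell, median ratio 0.45), while with median centring 2 rose, 3 fell and the median turned to -0.26. Of 8 mature adipocyte markers, none passed (median -0.32), though all 8 passed as lower with median centring (median -1.02). Under that centring 389 of all 19328 features passed as higher and 9708 as lower. The sum of the 8 was 0.870, 0.509 and 0.598 times that in wild type on arrays 1 to 3. Such a sum weighs bright genes most, and Cfd had the lowest ratios of the 8 (-0.53, -2.25 and -1.99). The list's median ratio was -0.17, -0.46 and -0.39 on these arrays. Of 11 macrophage markers, 7 rose and none fell (median 1.63; 6 rose and 2 fell with median centring), and their sum was 12364 to 14866 in Ad-Lkb1 and 3142 to 7702 in wild type. Macrophages also express Lpl, Fabp4, Fabp5 and Cd36, and the part of these cells in the 10 genes was not tested. The macrophage sum was 3.91, 4.73 and 1.61 times as high in Ad-Lkb1 on arrays 1 to 3.

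Fabp3 is a muscle protein too, so the muscle markers were set beside it. Of 10, 6 were measured, and their sum in Ad-Lkb1 was 0.142 times that in wild type on array 1, but 5.33 and 12.9 times on arrays 2 and 3. Fabp3 had -1.18 on array 1 and -0.98 and -0.78 on the others, and the part of muscle in these values was not tested. Myh1, Myh2, Ckm and Actn3 were well above background on at most 2 arrays in either channel. Of 5 fibroblast markers, 4 rose (median 0.82; 2 rose with median centring), with sums 1.53, 2.43 and 1.92 times as high, and their part was not tested.

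**Figure D4:**
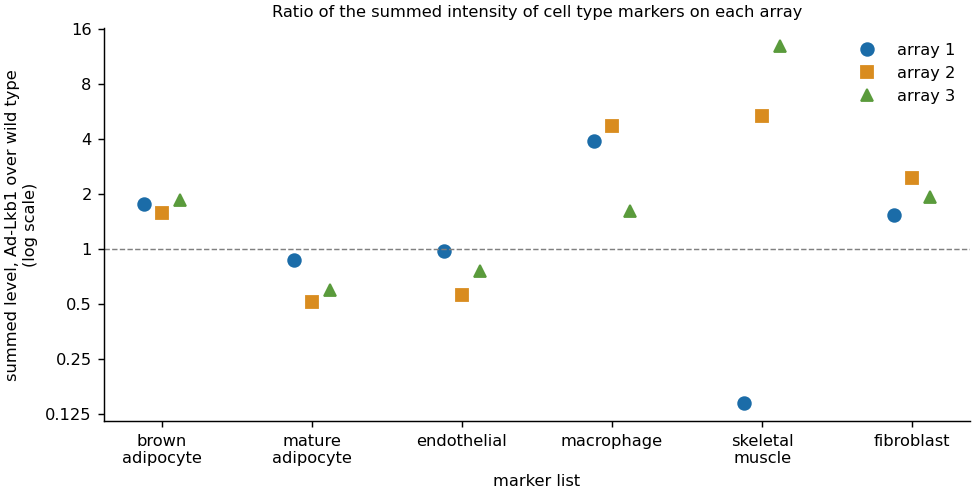
Ratio of the summed intensity of each list of cell type markers, Ad-Lkb1 over wild type (vertical axis, log scale), on each array, by list (horizontal axis). Macrophage sums stand above 1 on all arrays (1.61 to 4.73), while the muscle sums run from 0.142 to 12.9.

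Centring on the median of each array moved the ratio of each of the 10 genes by -0.67 to -0.72 and the median of all features by -0.41. The 10 genes kept their order by mean ratio, while 9 of them passed the threshold, 1 higher and 8 lower, beside 10097 or 52.2% of all 19328 features. Over 14 alternatives the mean ran from 0.50 to 1.44 for Lpl, from -1.77 to -0.90 for Vldlr, from -1.67 to -0.88 for Fabp3 and from -1.15 to -0.37 for Slc27a1. None of these 4 changed sign, though many of the alternatives could not change it.

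**Figure D5:**
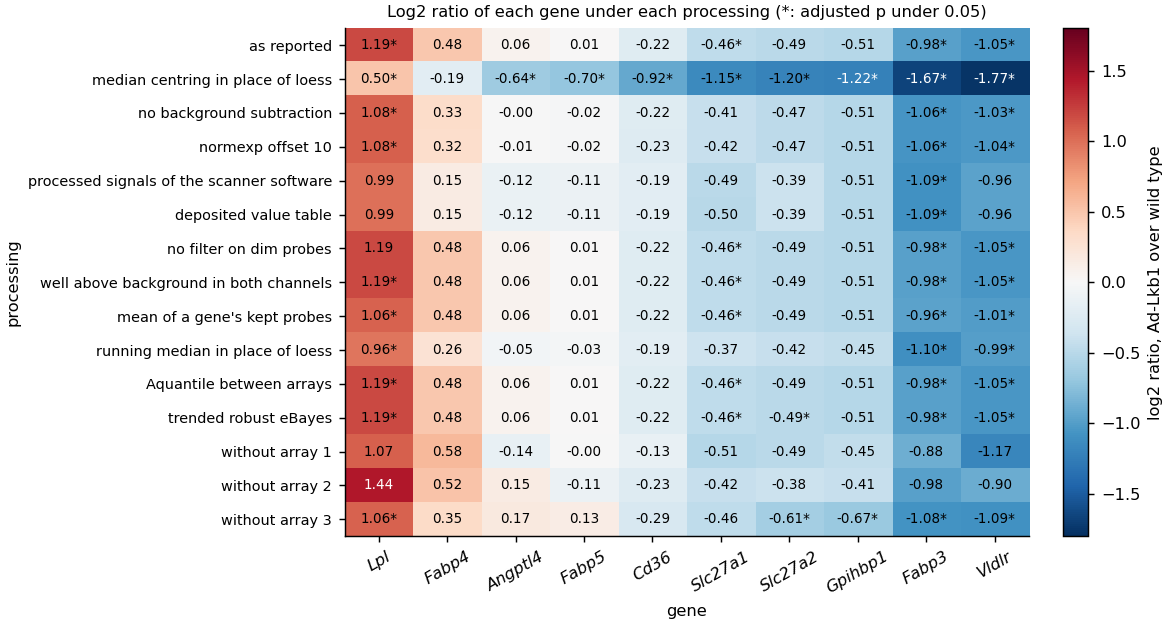
Log2 ratio (Ad-Lkb1 over wild type, colour) for each of the 10 genes (horizontal axis) under each processing (vertical axis), with a star where limma's adjusted p was under 0.05. Lpl is above 0 and Vldlr, Fabp3 and Slc27a1 are below 0 in every row, while Fabp4, Fabp5 and Angptl4 change sign.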

How the data were processed

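The deposited scanner files hold the median intensity of each spot and of its local background in both channels, made by the authors with Agilent Feature Extraction (the submitters' processing notes give version 11.5). Per the file headers they also hold processed intensity values and the log10 of the Cy5 over Cy3 ratio. The log10 ratio of array 1 was handled as a score, since that deposited file holds further rows below its features. The deposited value table equals the log10 ratio (Pearson r 1.0000 on each array, largest difference 0.0049, median 0.0 in each column), so its scale, centring and direction are known.

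With limma 3.58.1 in R 4.3.3, background was corrected by normexp (offset 50) and dyes by loess on each array, in which control spots had no weight. Ratios were not scaled between arrays. Levels of single samples are those values after Aquantile scaling. Outlier spots were left out and spots of a probe averaged. A probe was kept where at least 1 channel was well above background on every array, and a gene is its kept probe of highest mean intensity. Symbols came from RefSeq (GRCm38.p6), with 28026 of 29796 probes that carry a RefSeq accession matched to 1 symbol. The offset understates folds of dim genes.

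The ratio was tested against 0 with lmFit and eBayes, which pairs the samples of an array, with Benjamini-Hochberg adjustment over 19328 genes and unnamed features (threshold 0.05). The procedure was also run on simulated data with noise drawn separately for each gene, and the outcome is not reported here. The named genes are all 10 members, and of the lists those past the threshold with a few others. Some genes of the lists enter the counts and are not reported here by name. The members, the lists and the markers were chosen with earlier results of these data known. The arrays share 1 slide and 1 scan, and no batch could be tested. The 3 arrays limit the precision.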

Additional observations from a re-analysis of the deposited data

How the results depend on the processing

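Of 14 alternatives, 13 were planned and 1, a running median along intensity in place of loess, was chosen after seeing the data. The 4 called genes kept their direction in all 14, as did Gpihbp1, Cd36 and Slc27a2. Many of the 14 could not change it. Scaling between arrays, the other filters on dim probes and the robust variance trend left the mean ratio of each member as reported. These genes had the same sign on all arrays, so leaving out an array could not turn it either. The deposited table nearly repeats the processed signals, so counts out of 14 are not counts of independent checks. The 1681 called features became 10097 with median centring, 807 with processed signals, 806 with the deposited value table, 1033 with no filter on dim probes, and 0 to 2052 when an array was left out. The 2186 called probes became 12743, 1049, 1078, 1341, and 0 to 2420. The 4 called members became 9 with median centring, 1 with processed signals, 1 with the deposited table, and 0 to 5 with an array left out. The 7 called genes acting with them became 20 (2 higher, 18 lower) with median centring, 4 with the deposited table, 11 with a robust variance trend, and 0 to 7 with an array left out. With median centring Fabp4 turned to -0.19, Fabp5 to -0.70 and Angptl4 to -0.64, and the last pair passed. Fabp5 was also below 0 with no background subtraction (-0.019), an offset of 10 (-0.021), processed signals (-0.11), the deposited table (-0.11) and the running median (-0.033), as was Angptl4 (-0.0040, -0.0064, -0.12, -0.12 and -0.048). With an array left out, Fabp5 ran from -0.11 to 0.13 and Angptl4 from -0.14 to 0.17. The cause of these shifts was not tested. No paired fit apart from the reported one was possible because each ratio already pairs the samples of an array.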
